A study of Mus musculus with 4 samples.

Results

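Genes of iron uptake, export and storage were followed through adenomas of the mouse small intestine by single-cell RNA sequencing. The members were Cybrd1, Slc11a2, Slc40a1, Heph, Fth1, Ftl1 and Tfrc, which is 7 of the 27514 genes listed with the same identifier in all 4 gene tables. They were chosen by measured values, namely their levels across 5 classes of cells in these same libraries. Those levels are therefore given as a description, with no test. The comparison between genotypes within a class did not enter the choice and was tested.

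The 4 libraries were made from small intestinal adenomas of C57BL/6 mice aged 11 weeks. ApcMin mice were ApcMin/+ with both wild-type copies of Lef1 (Lef1 +/+), and VApcMinL mice were ApcMin/+ with floxed Lef1 alleles (Lef1 fl/fl) and the Villin-Cre transgene. Both groups thus carried the Apc Min mutation, and Villin-Cre acts in the epithelium of the gut from early development on, in normal and tumor epithelium alike. The Lef1 protein is a Wnt pathway transcription factor, and the design asks what its loss does in Apc-mutant adenomas. Each library pooled several unsorted tumors of similar size and location. The 10x Genomics kit for 3′ ends was of version 2 for both replicates 1 and of version 3 for both replicates 2, called kit 2 and kit 3 here. Libraries are named by group and replicate as labelled, and their values are given in the order ApcMin 1, VApcMinL 1, ApcMin 2 and VApcMinL 2. Levels are CPM, the UMIs (unique molecular identifiers, each a counted molecule) of a gene per 1000000 UMIs of a class in a library.

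Dietary iron is reduced at the brush border of the enterocyte by the reductase DCYTB (Cybrd1) and taken into the cell by the transporter DMT1 (Slc11a2). It leaves across the basolateral membrane through ferroportin (Slc40a1), the known iron exporter of mammalian cells, after which hephaestin (Heph) oxidizes it for binding to transferrin. Iron kept in the cell is stored in ferritin, a shell built of a heavy chain (Fth1), which oxidizes iron, and a light chain (Ftl1), which aids its mineralization. The transferrin receptor (Tfrc) takes up iron from the blood side and is known for high levels in dividing cells. Macrophages recycle iron from red blood cells and are rich in ferritin and ferroportin.

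Cells were barcodes with at least 2000 UMIs, of which at most 20% were mitochondrial. The libraries held 2472, 2537, 2071 and 4217 cells in the order above, with a median of 10880 to 26205 UMIs per cell, and from 20.4% to 61.6% of the barcodes over the UMI limit were removed as mitochondrial. Classes were gated on sums of marker genes that held no member. The enterocyte class had 190, 258, 619 and 433 cells, and the villus-tip class, which passed a list of villus-tip enterocyte genes in addition, had 123, 451, 430 and 274. The crypt class had 155, 93, 74 and 252 cells, the adenoma class 396, 543, 324 and 1701, and the macrophage class 93, 56, 20 and 43. The names stand for these gates. In each class the median cell was well above its own limit for the enterocyte list (194 to 350 against a limit of 60 UMIs per 10000) and the macrophage list (161 to 233 against 24). The gates for adenoma, crypt and villus-tip cells were less sharp, with 6.8% to 31.2% of their cells lying within 25% above the limit.

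Checks of the labels went partly against them. Lef1 in the adenoma class was at 11.6, 31.0, 40.5 and 25.9 CPM, so in the kit 2 pair the library labelled Lef1 fl/fl had more of it. The adenoma class also differed within that pair. Its median cell held 4.98 (ApcMin 1) and 16.4 (VApcMinL 1) UMIs per 10000 of the adenoma marker list. The cells within 25% above the limit were 21.5% and 6.8%, and the part of this in the Lef1 levels was not tested. As the counts are of 3′ ends, a transcript without the deleted exons can still be counted. Every library was labelled male, yet Xist, the RNA of the inactive X chromosome, had 6, 30641, 12 and 29604 UMIs, and 4 Y-linked genes together had 3123, 1, 5639 and 7938. VApcMinL 2 held both kinds of cell, with 26.9% of its cells having Xist only and 51.0% having Y-linked RNA only. Genotype and sex-linked RNA cannot be told apart in the kit 2 pair. Kit 2 libraries shared 9 cell barcodes, and ApcMin 1 shared 1 with VApcMinL 2. How many unrelated libraries would share by chance was not computed, so nothing is read from these counts.

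In the transcripts of 4 members a search by letters found the hairpin known as the iron-responsive element. The iron regulatory proteins bind to this hairpin when iron is low. In a 5′ UTR the bound protein blocks translation, and in the 3′ UTR of Tfrc it protects the RNA, so that only the latter kind changes the RNA level. The elements are shown because UMI counts read RNA, and ferritin and ferroportin are known to be set largely at translation. They were found by their letters in the GENCODE M21 transcripts (GRCm38), as a bulged C, 5 bases, the loop CAGTGN with any last base but G, and 5 bases that pair with the first 5, G with T allowed. Capitals mark the bulged C and the 6 loop bases.
Fth1 5′ UTR, chr19:9982733-9982759, plus strand: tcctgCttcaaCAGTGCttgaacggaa
Ftl1 5′ UTR, chr7:45459780-45459806, minus strand: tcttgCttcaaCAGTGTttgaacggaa
Slc40a1 5′ UTR, chr1:45925466-45925492, minus strand: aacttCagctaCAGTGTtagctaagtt
Tfrc 3′ UTR, chr16:32631220-32631246, plus strand: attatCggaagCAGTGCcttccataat
Tfrc 3′ UTR, chr16:32631599-32631625, plus strand: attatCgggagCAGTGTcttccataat
Tfrc 3′ UTR, chr16:32631664-32631690, plus strand: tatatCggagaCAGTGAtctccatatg
Tfrc 3′ UTR, chr16:32631711-32631737, plus strand: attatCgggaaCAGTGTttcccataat

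The stems of the Fth1 and Ftl1 elements were nearly alike, while Slc40a1 had a stem of its own, and the 4 Tfrc elements lay within one stretch of its 3′ UTR. Such letters were rare, being found in the 5′ UTR of 23 (0.105%) and the 3′ UTR of 100 (0.457%) of 21901 protein-coding genes. Cybrd1, Slc11a2 and Heph had no match, which says only that these letters were not in the annotated UTRs. An element whose stem pairs in another way would be missed, so these genes may still carry one. The GRCm38 positions of the genes are chromosome 2, 71117923 to 71142926 for Cybrd1 (ENSMUSG00000027015), chromosome 15, 100387898 to 100425072 for Slc11a2 (ENSMUSG00000023030), and chromosome X, 96455359 to 96574485 for Heph (ENSMUSG00000031209).

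Cybrd1 was highest in villus-tip cells in every library. There it stood at 112, 367, 77.3 and 160.2 CPM, against 47.9, 30.3, 7.6 and 23.6 in the enterocyte class. The villus-tip level exceeded the enterocyte level in 4 of 4 libraries, by 2.6 on the log2 scale (SD 1.00, n = 4, with 2 CPM added to both levels). Levels in the other classes were low, at 2.01, 5.66, 2.20 and 12.3 in crypt cells, 7.56, 8.56, 6.65 and 9.80 in adenoma cells and 2.24, 6.08, 0 and 0 in macrophages, where the 0 in each kit 3 library allows up to 14.0 and 10.0. T cells, which have no part in iron absorption, held 4.5 to 8.6. The crypt, adenoma and macrophage levels of Cybrd1 were close to these. The T-cell sums held only 179953 to 442076 UMIs a library, so T-cell levels of this size rest on few UMIs. Barcodes of 10 to 100 UMIs, taken here as free RNA, held 23.0 to 45.3 CPM of Cybrd1. Crypt cells could not be placed in order with adenoma cells or macrophages, as the differences were within the spread between libraries. Macrophages were below adenoma cells in 4 of 4 libraries (log2 -1.56, SD 0.97), from 1, 2, 0 and 0 macrophage UMIs.

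Cybrd1 RNA was counted in a minority of villus-tip cells. After each cell was thinned to 2000 UMIs, 8.13%, 19.3%, 4.42% and 8.39% of them had a Cybrd1 UMI (13.0%, 31.0%, 13.3% and 22.6% unthinned), against 1.34% to 2.75% of T cells. The median depth of villus-tip cells was 7345 to 23395 UMIs and that of T cells 2531 to 3184. The enterocyte level of Cybrd1 depended on the cell filter. At a mitochondrial limit of 10%, the difference of enterocyte over adenoma cells dropped from 1.32 (SD 0.94) to 0.12 and that of enterocyte over crypt cells from 1.94 (SD 1.25) to 0.69, both log2. The median share of mitochondrial UMIs was 10.6% to 14.1% in the enterocyte and villus-tip classes and 3.1% to 6.5% in the other 3.

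Slc11a2 marked absorptive cells as a whole. Its level was 355, 99.4, 86.0 and 208 CPM in the enterocyte class and 203, 80.1, 99.7 and 414 in the villus-tip class. The order of these classes was not the same in all libraries, since ApcMin 1 and VApcMinL 1 had more in the enterocyte class and ApcMin 2 and VApcMinL 2 more at the tip (mean log2 difference 0.02, SD 0.76, n = 4). Crypt cells had 14.1, 14.5, 16.7 and 21.2, adenoma cells 18.6, 14.3, 14.8 and 19.7 and macrophages 17.9, 12.2, 32.6 and 13.3. These levels lay near the 11.3 to 17.2 of T cells, and their neighbours in order did not differ beyond the spread between libraries. Barcodes of 10 to 100 UMIs held 26.6 to 58.5 CPM of Slc11a2. The enterocyte class stood above crypt cells by 3.13 (SD 0.98) and above adenoma cells by 3.1 (SD 0.77) on the log2 scale and the ranges did not overlap. A mitochondrial limit of 10% lowered these differences to 2.0 and 2.04.

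**Figure D1:**
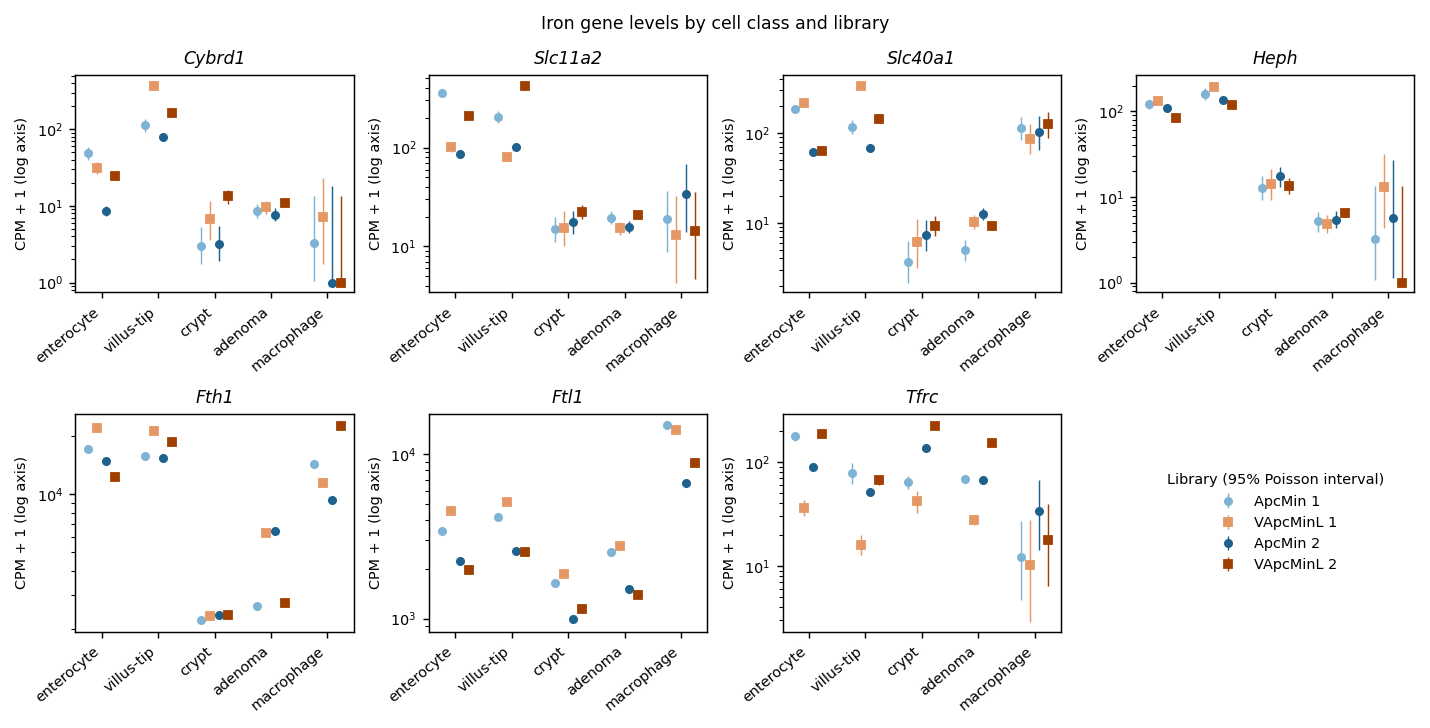
Level of each iron gene (CPM plus 1, log axis) in the enterocyte, villus-tip, crypt, adenoma and macrophage classes, with 1 point per library and 95% Poisson intervals that cover counting error only. Cybrd1, Slc11a2 and Heph are high in the enterocyte and villus-tip classes, Slc40a1 and Fth1 are high there and in macrophages, Ftl1 is highest in macrophages, and Tfrc is lowest in macrophages.

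Export genes followed the same epithelial pattern, and of both only ferroportin was also high in macrophages. Slc40a1 (ENSMUSG00000025993) was at 182, 215, 60.9 and 62.0 CPM in the enterocyte class, 116, 329, 67.3 and 141 in the villus-tip class and 112, 85.2, 102 and 123 in macrophages. These 3 classes overlapped, and macrophages differed from enterocytes by a mean of -0.08 log2 (SD 1.10, n = 4), being higher in both kit 3 libraries and lower in both kit 2 libraries. The macrophage level varied little, with a mean of 106 (SD 16.2, n = 4), whereas the mean enterocyte level in kit 2 was 3.23-fold that in kit 3 (198 against 61.4). Adenoma cells were at 3.95, 9.19, 11.6 and 8.09 and crypt cells at 2.69, 5.03, 6.29 and 8.30, near T cells. The T cells had at most 5.6, from few Slc40a1 UMIs, and barcodes of 10 to 100 UMIs had 14.0 to 55.5. The enterocyte class exceeded adenoma cells by 3.53 (SD 1.30) and macrophages exceeded them by 3.45 (SD 0.63), both log2.

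After thinning to 2000 UMIs, 17.2%, 19.6%, 25% and 14.0% of macrophages had a Slc40a1 UMI (26.9%, 28.6%, 40.0% and 37.2% unthinned), against 0% to 1.06% of T cells at a median depth of 2531 to 3184 UMIs, with macrophages at 4297 to 10504. The macrophage value of ApcMin 2 rests on 20 cells and 22 UMIs. Enterocyte-class cells had a Slc40a1 UMI in 23.2%, 33.3%, 8.40% and 9.01% of cells (36.8%, 67.4%, 32.6% and 32.8% unthinned).

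Heph varied little between libraries. Its enterocyte level was 120.03, 132, 109.8 and 83.7 and its villus-tip level 159.6, 193, 134 and 117 CPM, higher at the tip in 4 of 4 libraries by a small amount (log2 0.43, SD 0.11). Crypt cells held 11.7, 13.2, 16.4 and 12.4, and adenoma cells held less still, at 4.17, 3.82, 4.43 and 5.51. Adenoma cells were lower than crypt cells in 4 of 4 libraries (log2 -1.25, SD 0.25), whereas the crypt and adenoma levels of Slc11a2 overlapped. Macrophages had 2.24, 12.2, 4.65 and 0, from 1, 4, 1 and 0 UMIs, and the 0 allows up to 10.0 CPM. Enterocytes exceeded crypt cells by 2.87 (SD 0.32) and adenoma cells by 4.11 (SD 0.43) on the log2 scale.

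The ferritin heavy chain gene Fth1 (ENSMUSG00000024661) was among the abundant RNAs of absorptive cells and macrophages. The enterocyte class held 17079, 21862, 14733 and 12307 CPM, the villus-tip class 15703, 21138, 15342 and 18513 and macrophages 14211, 11368, 9258 and 22581. The ranges of these 3 classes overlapped. Crypt cells lay far lower and within a narrow range, at 2221, 2332, 2364 and 2363 (mean 2320, SD 67.6, n = 4), close to T cells at 1747 to 2054. Adenoma cells were at 2615, 6244, 6428 and 2707. They exceeded the crypt level in 4 of 4 libraries, but by 1.42 and 1.44 log2 in VApcMinL 1 and ApcMin 2 and by only 0.24 and 0.20 in ApcMin 1 and VApcMinL 2. The high pair and the low pair each held 1 library of each genotype and of each kit. Other markers moved with this grouping in the adenoma class. The enterocyte list summed to 311, 585, 546 and 290 CPM, the median cell held 4.98, 16.4, 13.2 and 5.91 UMIs per 10000 of the adenoma list, and 21.5%, 6.8%, 8.3% and 15.9% of the cells lay within 25% above the gate. Their part in the Fth1 levels was not tested. Enterocytes exceeded crypt cells by 2.80 (SD 0.37) and adenoma cells by 1.97 (SD 0.64), both log2.

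The ferritin light chain gene Ftl1 (ENSMUSG00000050708) was highest in macrophages, at 14955, 13951, 6715 and 8857 CPM. It followed in the villus-tip class at 4169, 5112, 2589.8 and 2544, the enterocyte class at 3394, 4493, 2235 and 1987, adenoma cells at 2538, 2771, 1513 and 1398 and crypt cells at 1646, 1867, 989.8 and 1138. This order held in each of the 4 libraries, and for every neighbouring pair the mean log2 difference within libraries was larger than its SD over libraries. The macrophage level exceeded the enterocyte level by 1.88 (SD 0.31) and the enterocyte level exceeded the crypt level by 1.07 (SD 0.20), both log2. Ftl1 was also higher with kit 2 than with kit 3 in every class, by 1.65-fold to 1.87-fold, which Fth1 was not (0.803-fold to 1.44-fold). A processed copy, Ftl1-ps1, was listed in the kit 3 tables alone and held 949 and 922 UMIs there against 145741 and 183647 for Ftl1. Reads shared between such copies can be lost or split, so the kit difference of Ftl1 is uncertain and its cause was not tested.

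The UMI ratio of heavy to light chain therefore differed between the classes. It was 5.03, 4.87, 6.59 and 6.19 in the enterocyte class and 3.77, 4.13, 5.92 and 7.28 in the villus-tip class. Crypt cells had 1.35, 1.25, 2.39 and 2.08, adenoma cells 1.03, 2.25, 4.25 and 1.94 and macrophages 0.95, 0.81, 1.38 and 2.55. Within each library every absorptive ratio lay above the crypt, adenoma and macrophage ratios of that library. The ratio compares RNA of 2 genes as counted at their 3′ ends, and says nothing of the makeup of the ferritin shell.

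Tfrc (ENSMUSG00000022797) had another pattern, with the lowest levels in macrophages and a fall toward the tip. It was at 63.4, 40.9, 137 and 223 CPM in crypt cells, 68.6, 26.8, 66.1 and 151 in adenoma cells, 177, 35.0, 88.9 and 187 in the enterocyte class and 77.3, 15.0, 50.9 and 66.7 in the villus-tip class. Macrophages had 11.2, 9.13, 32.6 and 16.7. VApcMinL 1 was lowest in all 5 classes. The villus-tip class was below the enterocyte class in 4 of 4 libraries (log2 -1.13, SD 0.28), whereas enterocytes and crypt cells could not be ordered (log2 0.09, SD 0.92), since ApcMin 1 alone had more Tfrc in the enterocyte class. After thinning, 9.68%, 8.60%, 31.1% and 31.3% of crypt cells had a Tfrc UMI (59.4%, 43.0%, 89.2% and 88.5% unthinned), against 1.06% to 7.34% of T cells. Median depths were 15302 to 38538 UMIs for crypt cells and 2531 to 3184 for T cells.

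The members were next followed along the villus-tip list within all cells of the enterocyte gate. Cells were placed in 4 bins by the summed UMIs per 10000 of Ada, Nt5e, Slc28a2, Creb3l3 and Apoa4, below 20, 20 to 60, 60 to 120 and 120 or more. Cybrd1 went from 38.3, 23.1, 5.96 and 4.57 CPM in the lowest bin to 193, 484, 174 and 251 in the highest. In each library the highest bin held the most. Tfrc ran the other way and fell at each step in 4 of 4 libraries, from 211, 49.3, 96.4 and 231 to 45.9, 14.3, 27.5 and 48.6. Heph rose at each step in 4 of 4 libraries, from 106, 91.6, 95.6 and 72.1 to 167, 193, 145 and 126.

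Slc11a2 and Slc40a1 did not follow the list in one way. Slc11a2 went from 395, 97.0, 67.7 and 96.1 to 77.4, 60.9, 76.5 and 374, lower at the tip in the kit 2 libraries and higher in the kit 3 libraries. Slc40a1 went from 204, 211, 70.7 and 42.6 to 79.8, 289.5, 90.0 and 159.9, lower at the tip in ApcMin 1 and higher in the other 3 libraries. Fth1 was lower in the highest than in the lowest bin in 3 libraries, from 18484, 21046, 13543 and 9496 to 13045, 18070.4, 12157 and 18723, with VApcMinL 2 as the exception. Ftl1 was higher in the highest than in the lowest bin in 4 of 4 libraries, from 3461, 4060.1, 2055 and 1844 to 4617, 5219, 2573 and 2591. Genes of ileal enterocytes, which take up bile acids (Fabp6, Slc10a2, Slc51a and Slc51b), differed between libraries and classes as well. They summed to 274, 251, 3157 and 2052 CPM in the enterocyte class and to 327, 283, 412 and 469 in the villus-tip class, so in kit 3 the gates also parted cells by ileal genes. The proximal genes Pdx1, Gata4 and Lct summed to 361, 413, 523 and 244 CPM in the enterocyte class. In the villus-tip class they summed to 945, 647, 644 and 528, higher in every library of both kits. The part of intestinal position in the values of the members was not tested.

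**Figure D2:**
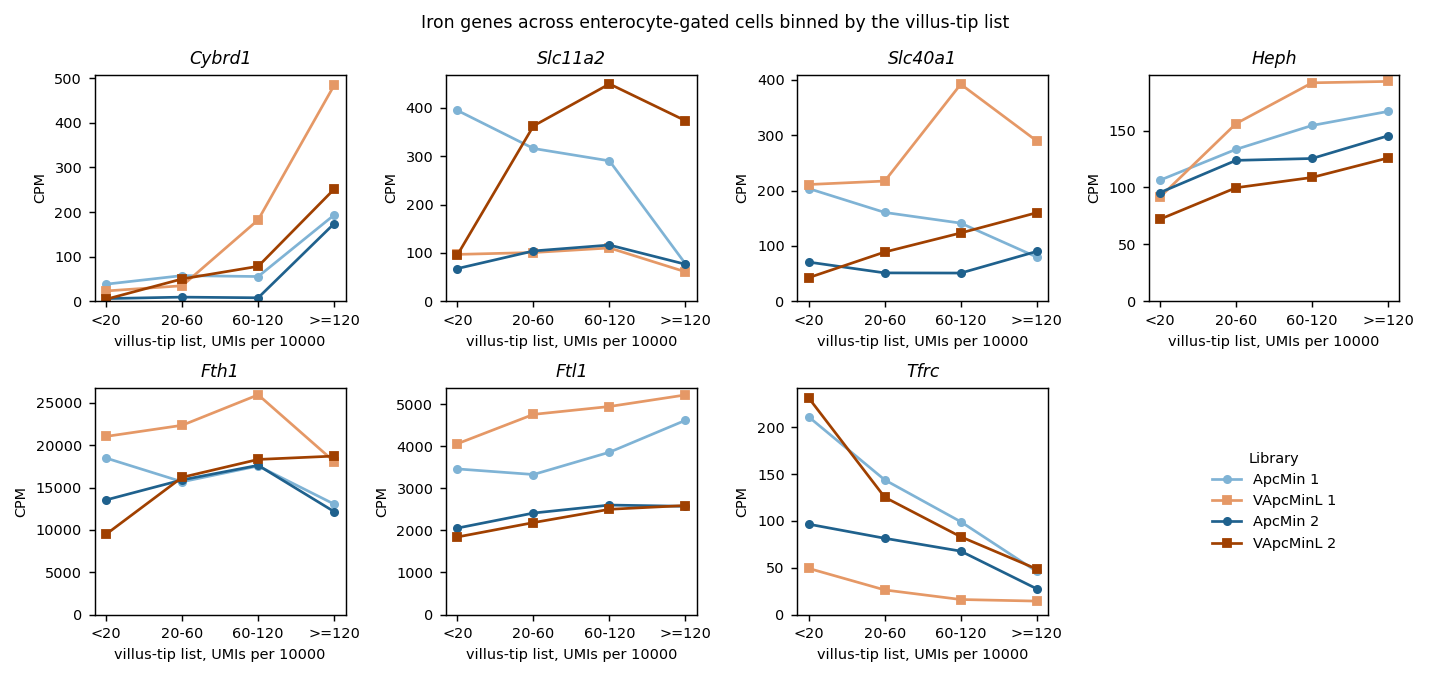
Level of each iron gene (CPM, linear axis from 0) in cells of the enterocyte gate placed in 4 bins by the summed villus-tip list (UMIs per 10000, x axis), with 1 line per library. The Tfrc line falls at each step in all 4 libraries and the Heph line rises at each step, and Cybrd1 is highest in the last bin in all 4, at 174 to 484 CPM.

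Within the adenoma class, cells with 8 cell cycle genes at 5 or more UMIs per 10000 were set beside cells with less than 1. There were 168, 166, 123 and 759 cycling cells against 115, 238, 129 and 469 others. Tfrc was higher in cycling cells in 4 of 4 libraries, at 88.8, 31.0, 81.5 and 174 CPM against 35.2, 21.3, 46.3 and 100.1. Fth1 was lower in cycling cells in 4 of 4 libraries, at 2058, 3993, 5172 and 2284 against 3672, 8815, 8017 and 3593. The other storage chain moved the same way by less, with Ftl1 at 2140.3, 2433, 1360.4 and 1261 against 3004, 3005, 1767 and 1619. Cybrd1 and Slc40a1 were also lower in cycling cells in each library, by 0.65 to 1.52 and 0.36 to 0.97 log2, from low levels. Slc11a2 and Heph changed sign between libraries. Cycling cells were deeper, with medians of 24215 to 42638 UMIs against 14598 to 26719, and the part of depth was not tested.

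The genotype comparison was made within each class on summed counts with edgeR's quasi-likelihood test, with the kit as a block. With Benjamini-Hochberg adjustment over all genes, edgeR called 1 of 10365 genes in the enterocyte class (0.00965%), 1 of 9490 in the villus-tip class (0.0105%), 1 of 10272 in crypt cells (0.00974%), 0 of 12655 in adenoma cells (0%) and 1 of 4178 in macrophages (0.0239%). The called gene was Xist each time, higher in VApcMinL, named here after its values were seen. Of the same genes, edgeR gave an unadjusted p under 0.05 to 150 in the enterocyte class, 200 in the villus-tip class and 371 in crypt cells. It did so for 32 in adenoma cells and 140 in macrophages. In adenoma cells DESeq2 called 3. None of the members was called. Of the 35 pairs of a member and a class, 31 passed the filter on low counts, and edgeR called 0 of them, with 3 at an unadjusted p under 0.05 and DESeq2 also calling none. Cybrd1, Slc11a2, Heph and Tfrc did not pass in macrophages.

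The 3 pairs with an unadjusted p under 0.05 were all higher in VApcMinL. Cybrd1 in the villus-tip class was 1.41 log2 higher (SE 0.30, unadjusted p = 0.00185 and adjusted p = 1.00 by edgeR), with within-kit differences of 1.80 in kit 2 and 1.00 in kit 3. Slc40a1 in the villus-tip class was 1.31 higher (SE 0.28, unadjusted p = 0.00172 and adjusted p = 1.00 by edgeR), with 1.59 and 1.01 within the kits. Cybrd1 in crypt cells was 2.02 higher (SE 0.49, unadjusted p = 0.00349 and adjusted p = 0.999 by edgeR), from 6, 9, 7 and 77 UMIs. The adjusted p for the villus-tip pair of Cybrd1 by edgeR was 0.000105 with the mitochondrial limit at 10% and 0.00709 with no filter on low counts. This call thus depended on the cells and genes admitted, and the calls over all genes of the class rose in both settings too. In kit 3 the direction also depended on the cells of VApcMinL 2 that were taken. Its villus-tip cells with Xist only had 47.7 CPM of Cybrd1 and 50.7 of Slc40a1, below ApcMin 2 at 77.3 and 67.3, and those with Y-linked RNA only had 224 and 192. ApcMin 2 held Y-linked RNA, so its cells are unlike the Xist-only cells in this. The Y-only villus-tip cells of ApcMin 2 had 67.6 and 70.1, so among Y-only cells the direction was that of the whole libraries. The libraries compared also differed in Xist, and in the kit 2 pair adenoma Lef1 was higher in the library labelled Lef1 fl/fl. The part of either in these values was not tested.

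Over the 31 pairs the fitted log2 differences ran from -0.81 to 2.02. The kits gave opposite signs in 24 of them, both gave higher values in VApcMinL in 7, and in none were both lower. No such count was made over all genes, so this split cannot be called particular to the members. These signs rest on the labels, and in the kit 2 pair adenoma Lef1 was higher in the library labelled Lef1 fl/fl. With the kit 2 direction turned, the 24 pairs would have the same sign in both kits and the 7 would not. This follows from the counts by arithmetic and is no test of the labels. In the enterocyte class the kit 2 and kit 3 differences were -1.82 and 1.19 for Slc11a2 and -2.28 and 0.99 for Tfrc. In the adenoma class they were 1.17 and -1.17 for Fth1 and -1.38 and 1.24 for Tfrc. Where Fth1 was higher in the adenoma cells of a kit pair, Tfrc was lower. With 2 libraries a group and the kit as a block, the errors rest on disagreement between the kits and were wide. The SE was 0.76 for Fth1 and 0.80 for Tfrc in adenoma cells, and a missed threshold does not show that the genotypes were alike.

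**Figure D3:**
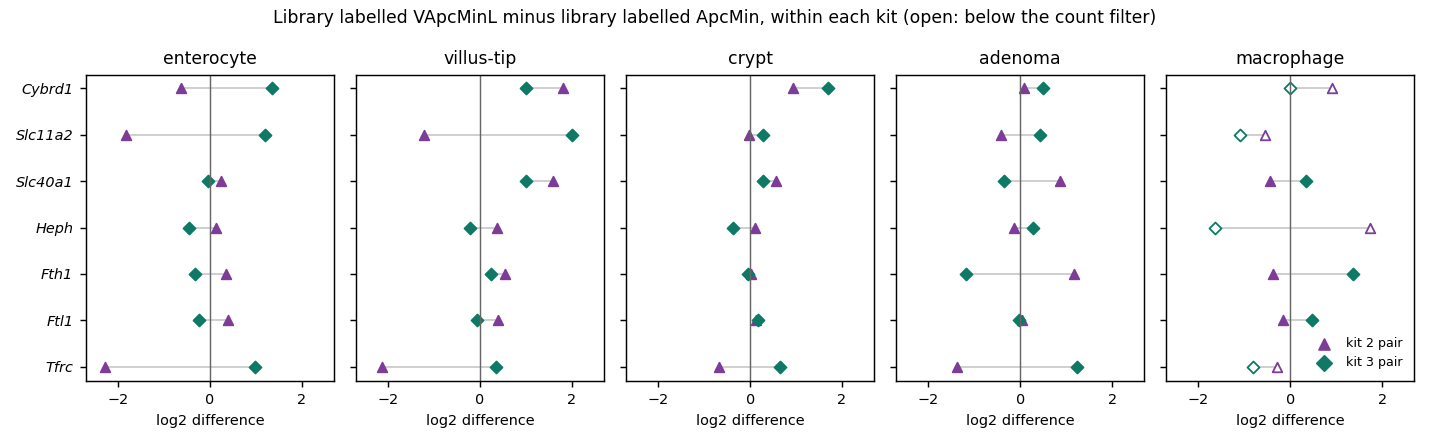
Log2 difference of the library labelled VApcMinL over that labelled ApcMin within each kit, for the 7 genes (rows) in 5 classes (panels), with triangles for kit 2, diamonds for kit 3 and open symbols for genes below the count filter. Kit 2 and kit 3 fall on opposite sides of 0 for 24 of the 31 pairs that passed, a count not made over all genes. Cybrd1 and Slc40a1 in the villus-tip class lie above 0 in both.

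VApcMinL 2 allowed a comparison within a library, since it held cells with Xist only and cells with Y-linked RNA only. This split was made after the values were seen, and as all cells came from 1 library it has no test. In the villus-tip class there were 89 Xist-only cells and 102 Y-only cells at similar depth (medians 13984 and 14837 UMIs). Cybrd1 was at 47.7 CPM (95% Poisson interval 36.6 to 61.0, counting error only) in Xist-only cells and at 224 (200 to 249) in Y-only cells. Slc11a2 was at 146 (126 to 168) against 558 (521 to 597), and Slc40a1 at 50.7 (39.3 to 64.4) against 192 (171 to 215). These 3 transport genes differed 3.79-fold to 4.69-fold between the cells of the villus-tip class. In the enterocyte class (125 and 189 cells) Cybrd1 went the other way, at 30.6 against 19.7, and Slc11a2 and Slc40a1 were 1.55-fold and 1.39-fold higher in Y-only cells. In the villus-tip class Heph did not share this difference, at 123 against 117, and neither did Ftl1, at 2691 against 2564. Fth1 was at 16029 against 20441 and Tfrc at 53.7 against 74.3.

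The villus-tip list itself stood at 18968 CPM in Xist-only and 16956 in Y-only cells of that class, and the proximal genes Pdx1, Gata4 and Lct at 729 and 461. In the other libraries, which differ from it in kit or genotype, the Xist-only villus-tip cells of VApcMinL 1 held 375 CPM of Cybrd1 and the Y-only cells of ApcMin 2 held 67.6. The part of sex-linked RNA in these levels was not tested. In the adenoma class of VApcMinL 2 (430 and 972 cells) Cybrd1 was at 6.88 (5.52 to 8.48) in Xist-only and 10.3 (9.15 to 11.6) in Y-only cells, and Slc40a1 at 5.86 (4.61 to 7.35) and 8.87 (7.78 to 10.1), so the intervals did not overlap. The other 5 members differed by less, such as Slc11a2 at 17.2 against 18.9, Fth1 at 2538 against 2746 and Tfrc at 141 against 155. Lef1 there was at 23.9 against 27.5. The marker lists differed between these adenoma cells as well. Xist-only against Y-only cells held 213 against 271 CPM of the enterocyte list and 77.4 against 116 of the villus-tip list. The proximal genes were at 56.2 against 57.1 and the ileal genes at 23.2 against 18.9. The part of these lists in Cybrd1 and Slc40a1 was not tested. The villus-tip level of VApcMinL 2 given above is thus a mean over cells that differed several fold.

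**Figure D4:**
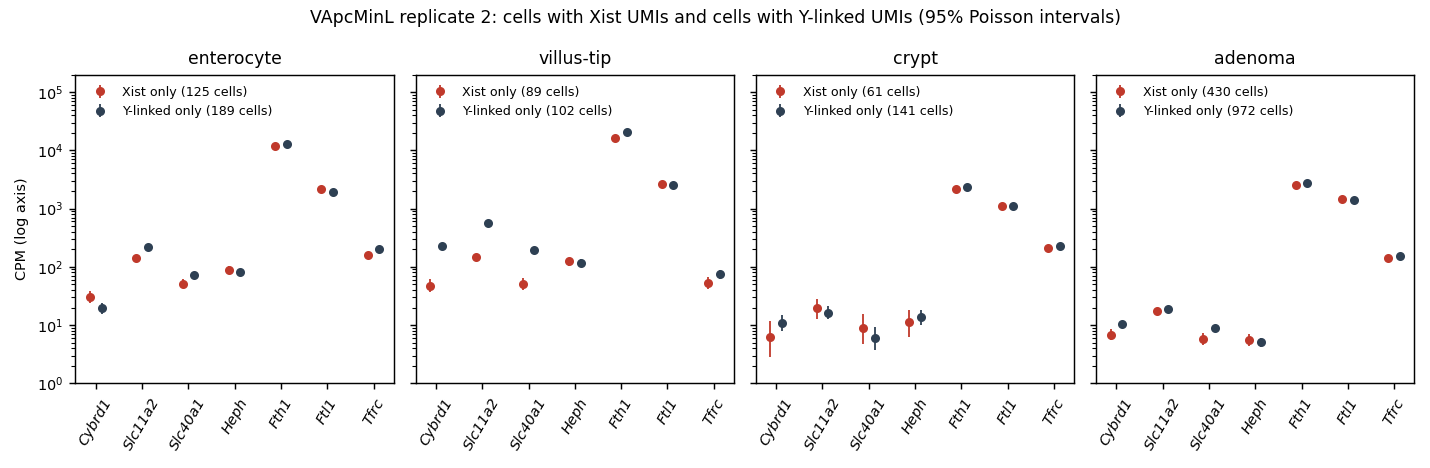
Level of each iron gene (CPM, log axis) in cells of VApcMinL 2 with Xist UMIs only and with Y-linked UMIs only, by class, with 95% Poisson intervals that cover counting error only. In the villus-tip class Cybrd1, Slc11a2 and Slc40a1 are 3.79-fold to 4.69-fold higher in the Y-only cells, while Heph and Ftl1 lie side by side.

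Other iron genes were read from a list of 46, of which 45 were in the tables and 36 passed the filter. They include regulators, heme and mitochondrial iron genes, and were tested between classes with edgeR on sums of all 5 classes, with the library as a block. Between the enterocyte class and crypt cells, 19 of the 36 were higher and 7 lower in enterocytes, against 33.3% higher and 31.8% lower among all 12068 genes tested, and the median log2 difference was 0.45 against -0.01. Slc46a1, a transporter of folate and heme, was at 96.3, 148, 67.9 and 46.1 CPM in enterocytes and 4.03, 1.89, 3.78 and 2.23 in crypt cells, 5.16 log2 higher (SE 0.25, adjusted p = 2.24e-13). Genes of the hypoxia response followed by size. Egln3, a prolyl hydroxylase, was at 3.44 (SE 0.34, adjusted p = 1.74e-08), and Ankrd37 at 3.17 (SE 0.25, adjusted p = 6.59e-10). Epas1, which encodes HIF-2α, a known activator of Cybrd1, Slc11a2 and Slc40a1, was at 2.93 (SE 0.21, adjusted p = 2.14e-10). Epas1 was at 28.8, 29.7, 15.1 and 21.7 in enterocytes and 4.36, 3.77, 4.72 and 3.83 in crypt cells, with no overlap.

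Between the enterocyte class and adenoma cells the counts were the same, 19 higher and 7 lower in enterocytes, against 33.5% and 37.5% of all genes. Median log2 differences were 0.58 for the list and -0.11 for all genes. Slc46a1 was 4.38 higher in enterocytes (SE 0.20, adjusted p = 4.36e-14). The genes higher in adenoma cells included 3 that encode secreted proteins of iron metabolism. Lcn2, a binder of bacterial siderophores, differed by -4.66 log2 (SE 0.63, adjusted p = 1.33e-06). Trf, the transferrin gene, differed by -3.98 (SE 0.68, adjusted p = 2.22e-05), and Hamp, the hepcidin gene, by -3.70 (SE 0.42, adjusted p = 1.13e-07).

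In adenoma cells Lcn2 was at 10.0, 352, 219 and 9.10 CPM and Trf at 11.96, 161, 89.3 and 6.98. Both were high in VApcMinL 1 and ApcMin 2, the libraries in which adenoma cells also had the higher Fth1 and, within each kit, the lower Tfrc, and in which the enterocyte and adenoma lists were higher as given above. The part of these lists in the values was not tested. Hamp did not follow them, at 89.5, 53.8, 29.0 and 28.2 in adenoma and 10.7, 4.40, 0 and 7.66 in crypt cells. Its paralog Hamp2 is nearly identical, so reads could be split between them and the level of Hamp is uncertain.

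Between adenoma and crypt cells 7 of the 36 were higher and 4 lower in adenoma cells, against 14% and 11.8% of all genes, so that this share was near the background. Hamp was 3.18 log2 higher (SE 0.42, adjusted p = 8.01e-06) and Lcn2 2.93 higher (SE 0.60, adjusted p = 0.000907) in adenoma cells. Steap3, an iron reductase of endosomes, differed by -1.91 (SE 0.35, adjusted p = 0.00037) and Hfe, a partner of the transferrin receptor, by -1.74 (SE 0.32, adjusted p = 0.000331), both from under 10 CPM. The number of calls was 7 without VApcMinL 1 and 3 with the kit 3 pair alone, against 11 in all libraries.

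Between the villus-tip and enterocyte classes 9 of the 36 were higher and 4 lower at the tip, against 9.5% and 11.2% of all genes. The largest were Steap3 at -2.22 (SE 0.67, adjusted p = 0.0223), Hmox1, the inducible heme oxygenase, at 1.66 (SE 0.47, adjusted p = 0.0157), and Ncoa4, which carries ferritin to the lysosome, at 1.54 (SE 0.22, adjusted p = 5.06e-05). Ncoa4 was at 16.8, 33.1, 228 and 287 CPM at the tip and 7.91, 13.1, 76.8 and 106 in enterocytes, far lower in kit 2 than in kit 3. The number of calls was 7 without VApcMinL 1, 8 without ApcMin 2 and 6 with the kit 3 pair alone, against 13 in all libraries. Steap3 was at 0 to 1.5 CPM in both classes, and its fitted value depends on the few counts.

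Macrophages differed from enterocytes in 10 genes that were higher and 13 that were lower, against 23.4% and 30.6% of all genes. Trf was at 623, 627, 269.7 and 517 CPM in macrophages (log2 7.90, SE 0.72, adjusted p = 4.51e-09), Hmox1 at 204, 152, 181 and 193 (5.73, SE 0.45, adjusted p = 4.68e-10) and Hfe at 94.1, 116, 88.4 and 100.04 (5.29, SE 0.31, adjusted p = 6.21e-12). Cp, the ceruloplasmin gene and a relative of Heph, was at 31.4, 51.7, 107 and 90.0 in macrophages (adjusted p = 2.40e-06) and at 0 in 3 of the 4 enterocyte sums. Cp was thus found in macrophages, where Heph was near 0, and Heph in enterocytes, where Cp was near 0.

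**Figure D5:**
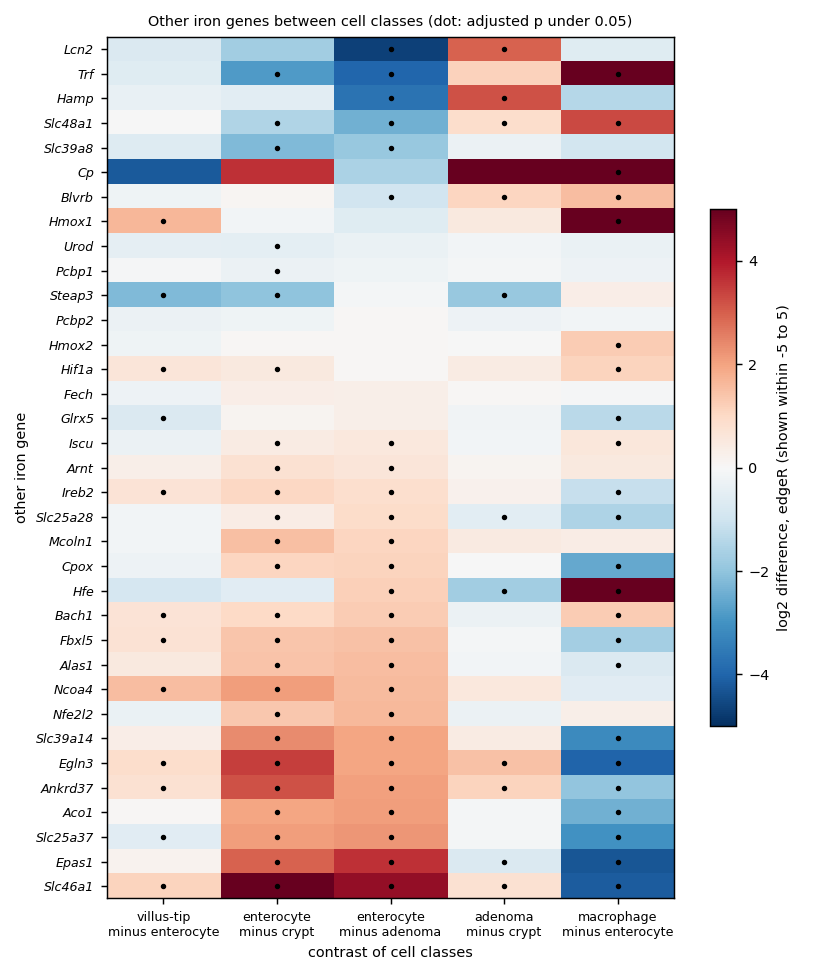
Log2 differences from edgeR for 35 of the 36 other iron genes (rows) in 5 contrasts of cell classes (columns), shown within -5 to 5, with a dot for an adjusted p under 0.05. Of the 36 tested, 26 were called for enterocytes against crypt cells and 11 for adenoma against crypt cells, and calls were likewise more frequent in the former among all genes (33.3% higher and 31.8% lower, against 14% and 11.8%).

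The members were last compared with each other and with all genes over the 20 sums of a class in a library. These sums share libraries, kits and depth, so Pearson's r is given as a description. Fth1 and Slc40a1 ran together (r = 0.95), and Slc11a2 and Cybrd1 each ran with Heph (0.84 and 0.83), while Ftl1 and Tfrc ran against each other (-0.82). Among 9177 genes, Heph was most like Slc7a9, Cdhr2 and Prap1 (0.98 each). Cybrd1 was most like Rab30, Tm4sf4 and Gprc5a (0.94, 0.94 and 0.93), and Slc11a2 most like Slc2a5, Hectd3 and Guca2b (0.93 each). Slc40a1 was most like Actb, Mcfd2 and Lipa (0.98, 0.96 and 0.95), and Fth1 most like Slc40a1, Lipe and Mcfd2 (0.95, 0.95 and 0.94). Ftl1 was most like Btg1, Gltp and Coro1b (0.96, 0.96 and 0.95). Tfrc had the weakest likeness, to Lzts3, Pdk1 and Tpmt (0.89, 0.87 and 0.83).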

How the data were processed

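Single-cell libraries of adenomas from 2 groups, ApcMin and VApcMinL, were analysed, 2 libraries each. The authors deposited raw UMI counts (whole numbers per gene and barcode) for all barcodes. The study's methods name Cell Ranger on mm10, the processing notes list Cell Ranger 2.1.1 and Seurat 3.1.1, and the kit 3 headers name a later Cell Ranger. The gene tables list 27998 genes in kit 2 and 31053 in kit 3, and the 27514 shared identifiers were used. UMIs of the other genes made up 0.192% to 0.568%. The libraries held 44660305, 49009488, 98714025 and 128247396 UMIs (ApcMin 1, VApcMinL 1, ApcMin 2, VApcMinL 2).

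Cells had at least 2000 UMIs and at most 20% mitochondrial UMIs. Classes were gated on summed marker UMIs per 10000, at 60 for enterocytes and villus-tip cells, 3 for adenoma cells, 4 for crypt cells and 24 for macrophages, set from the marker distributions. Doublets were not removed in the values reported and removed with Scrublet (scanpy 1.11.5, Python 3.11.15) as an alternative. The members and gene lists were chosen with earlier results of these data known.

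Counts were summed per library and class, as cells of a library share its source. The test was edgeR's quasi-likelihood test (edgeR 4.0.16 in R 4.3.3), after TMM scaling and filterByExpr, with Benjamini-Hochberg adjustment and a threshold of 0.05. Genotype was fitted in each class with the kit as a block, and the other iron genes between classes with the library as a block. DESeq2 1.42.0 was an alternative. The replicate number marks the kit, and deviations from the group means of same-numbered libraries correlated at r = 0.15 (adenoma) to 0.50 (crypt) across genes. Nothing says which libraries share animals, so p-values measure a spread between libraries and not between animals. With the kit as a block, the spread for genotype is how far the within-kit differences disagree, with information shared across genes. Poisson intervals are exact at 95%, a 0 allows up to 3 UMIs of the class total, and both cover counting error only. Simulated counts with 200 changed genes were used to check that the fits ran as meant. Their spread was a fixed value and was not taken from these libraries. They therefore do not show how well the genotype test performs here.

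All members are named. Of the other iron genes, those called with the 4 largest log2 differences in a contrast are named except 1 gene that is not reported here, and of genes most like a member, the 3 with the highest r. Other genes were named after their values were seen. Alternatives were another scaling, no filter on low counts, other UMI, mitochondrial and gate limits, thinning to 2000 UMIs, free RNA subtracted at 10%, no block, each library left out, and, added after the data were seen, the kit 3 pair alone.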

Additional observations from a re-analysis of the deposited data

Results flagged for a closer look

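In 4 member genes and classes the kit pairs moved in opposite directions by more than 1 on the log2 scale, and this difference between the kits was not tested, since each kit held 1 library of each genotype. Slc11a2 in the enterocyte class was -1.82 in kit 2 and 1.19 in kit 3 (VApcMinL minus ApcMin). Slc11a2 in the villus-tip class was -1.22 and 2.0. Fth1 in the adenoma class was 1.17 and -1.17. Tfrc in the adenoma class was -1.38 and 1.24. The signs in kit 2 rest on the labels, and adenoma Lef1 was higher there in the library labelled Lef1 fl/fl. In the adenoma class the pairs moved in opposite directions for Fth1 and Tfrc alike, so that the libraries with more Fth1 (VApcMinL 1 and ApcMin 2) were those with less Tfrc within their kit.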

How the results depend on the processing

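Limits are the 2 libraries a group, the kit that separates each pair, and the low counts of Cybrd1, Slc11a2, Slc40a1 and Heph in crypt, adenoma and macrophage cells. Of the 49 class differences of the members, 36 had the same sign in all 4 libraries. These kept their direction under 504 of 504 alternatives and moved by over 1.5-fold in 36. Alternatives that left out a library or took the kit 3 pair alone could not turn the direction, as they average values of the same sign. Genotype calls in the enterocyte, villus-tip, crypt, adenoma and macrophage classes were 1, 1, 1, 0 and 1. Where the count moved by over 1.5 times it was, with no replicate block, 0 in enterocytes, villus-tip and crypt cells. With DESeq2 it was 3 (enterocytes), 4 (villus-tip), 3 (adenoma) and 0 (macrophages). With no filter on low counts it was 24 (enterocytes), 61 (villus-tip), 75 (crypt) and 9 (macrophages). It was 2 in enterocytes and 40 in villus-tip cells at a mitochondrial limit of 10%. With gates doubled it was 0 in enterocytes, 34 in crypt cells and 8 in macrophages, and with Scrublet 2, 9 and 9 there. Thinned cells gave 0 (villus-tip), 1 (adenoma) and 2 (macrophages), and macrophages gave 6 with RLE factors, 7 at 1000 UMIs and 6 with gates halved. Leaving out a library leaves no spread within a kit, so these counts have no such value. The cause of these moves was not tested.

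Class calls for the other iron genes moved for villus-tip against enterocyte cells (13) to 5 with no replicate block, 20 with gates doubled, 6 with the kit 3 pair alone and 7 to 12 over libraries left out. For adenoma against crypt cells (11) they moved to 7 with no replicate block, 4 with thinned cells, 7 with free RNA subtracted, 3 with the kit 3 pair alone and 7 to 15 over libraries left out. The other 3 contrasts stayed within 1.5 times.

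Of 459 alternatives of the members' genotype differences, 43 were counted as reversed, all of differences that were not called. A sign that turned when a library was left out was not among these. Such a value is the difference within the other kit alone, and the kits had opposite signs in 24 of the 31 pairs. The reversed log2 values (VApcMinL minus ApcMin) with no replicate block were -0.024 for Cybrd1 in enterocytes, and -0.00085, 0.054 and 0.36 for Slc11a2, Fth1 and Tfrc in adenoma cells. Thinned cells gave -0.043, -0.017 and 0.0068 for Cybrd1, Slc40a1 and Tfrc in enterocytes, -0.053, 0.095 and -0.012 for Slc11a2, Fth1 and Ftl1 in adenoma cells, and 0.029 for Slc40a1 in macrophages. Gates doubled gave 0.079 for Slc11a2 in enterocytes, 0.16 for Fth1 in crypt cells, and -0.12, -0.17 and 0.14 for Slc11a2, Slc40a1 and Tfrc in adenoma cells. A mitochondrial limit of 10% gave -0.28 and -0.029 for Slc40a1 and Fth1 in enterocytes, -0.0031, -0.10 and 0.072 for Heph, Ftl1 and Tfrc in villus-tip cells, 0.0030 for Fth1 in crypt cells, and -0.082 and -0.012 for Slc11a2 and Ftl1 in adenoma cells. Gates halved gave -0.23, -0.15 and -0.029 for Slc40a1, Fth1 and Ftl1 in enterocytes, -0.022, 0.013 and 0.044 for Slc11a2, Heph and Fth1 in crypt cells, and -0.043, -0.13, 0.019 and -0.0044 for Slc11a2, Heph, Fth1 and Ftl1 in adenoma cells. Fth1 in enterocytes and Ftl1 in adenoma cells were at -0.0060 and -0.0057 with RLE factors and at -0.0060 and -0.0057 with DESeq2, and at -0.0075 and -0.0015 with no filter. At 1000 UMIs, Fth1 was at -0.00013 in enterocytes and 0.00086 in adenoma cells, and Scrublet gave -0.070 for Slc11a2 in adenoma cells. In 5 alternatives, in which the calls over all genes of that class also rose as given above, a member passed the threshold. By edgeR, Cybrd1 in crypt cells did so with gates doubled (2.22, adjusted p = 0.0232) and with no filter (2.02, adjusted p = 0.0348). By edgeR, Cybrd1 in villus-tip cells did so at a mitochondrial limit of 10% (2.18, adjusted p = 0.000105) and with no filter (1.37, adjusted p = 0.00709), and Slc40a1 there with no filter (1.28, adjusted p = 0.0143).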

Other observations

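Outside the 5 classes, Slc40a1 was also found in fibroblasts, at 48.3, 61.2, 53.0 and 53.0 CPM (UMIs per 1000000) from 82, 46, 31 and 14 cells, against at most 5.6 in T cells. Heph was at 24.2 to 49.6 in goblet cells and at 17.5 to 75.7 in tuft cells, the latter from 6 to 21 cells a library. B and plasma cells held more Ftl1 than T cells in 4 of 4 libraries, at 4919, 4440, 2850 and 3511 CPM against 1524, 1561, 700 and 714. These values are a description of gated cells and were not tested.

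Red blood cell RNA differed between libraries. In the enterocyte class the 4 globin genes summed to 730, 42.8, 0.73 and 5.1 CPM, highest in ApcMin 1, where Slc11a2 in that class was also highest at 355. Its part in the level of Slc11a2 was not tested.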
